A study of Mus musculus with 6 samples.

Results

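The secretory products of the conducting airway were followed as 10 genes (*Scgb1a1*, *Scgb3a1*, *Scgb3a2*, *Muc5b*, *Muc5ac*, *Bpifa1*, *Bpifb1*, *Reg3g*, *Ltf* and *Spdef*), chosen by symbol as products of club, goblet and submucosal gland cells, out of 26100 rows of the count table. All 10 were found once each, and all 10 were among the 16633 genes tested. The tissue was whole lung from 6 mice given bleomycin into the trachea and sampled at day 14, with 3 mice labelled WT and 3 labelled *Clec7a* knockout (KO). Bleomycin damages alveoli and leaves scar tissue, and the product of *Clec7a* is dectin-1, through which myeloid cells sense beta-glucan. Both genotypes received the drug, and lungs without it were not analysed here, so each comparison is between genotypes within injured lung. The labels used here state neither strain, sex nor age, nor which part of *Clec7a* was deleted and in which cells.

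Club cells line the bronchioles and release small secretoglobin proteins, goblet cells make the gel-forming mucins, and glands beneath the larger airways add antimicrobial proteins. Together these products form the fluid layer that traps and kills inhaled microbes. Interleukin-13 acting through STAT6 is known to drive goblet cells by way of the transcription factor SPDEF, and interleukin-17 and interleukin-22 are known to raise antimicrobial products of epithelium.

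The libraries held 31052936 to 34451956 counts. Levels are given as CPM, counts relative to library size after TMM scaling. *Clec7a* stood at 60.6, 84.0 and 196.5 CPM in WT replicates 1 to 3 and at 3.60, 6.85 and 2.84 CPM in the KO libraries, so the targeted gene was lower in every library labelled KO. The lung surfactant gene *Sftpc* was present in every library, from 938.1 to 13701 CPM. WT replicate 1 and KO replicate 1 were unlike the other libraries: Spearman correlations across genes were 0.924 to 0.947 for pairs with a first replicate and 0.958 to 0.992 for pairs without one. Mitochondrial transcripts took 7.34% of the counts in KO replicate 1 and 2.69% to 3.87% in the other 5 libraries. In whole tissue, fewer cells of a type and less RNA per cell cannot be told apart.

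Promoter sequence is shown for the 3 members of highest mean CPM that have an entry in the RefSeq promoter table. The table (build GRCm38.p6) held 6 of the 10 members: *Scgb3a1*, *Bpifa1*, *Bpifb1*, *Reg3g*, *Ltf* and *Spdef*. Each line gives the bases before the start site on the plus strand, 5′ to 3′, and capitals mark the motif matches described after them.
Bpifa1, chr2:154142630-154142879: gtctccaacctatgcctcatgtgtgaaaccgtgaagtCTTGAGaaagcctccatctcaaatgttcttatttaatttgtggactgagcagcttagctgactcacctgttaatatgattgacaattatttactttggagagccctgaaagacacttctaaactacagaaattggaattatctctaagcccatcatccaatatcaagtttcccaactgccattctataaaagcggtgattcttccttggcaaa
Ltf, chr9:111019042-111019270: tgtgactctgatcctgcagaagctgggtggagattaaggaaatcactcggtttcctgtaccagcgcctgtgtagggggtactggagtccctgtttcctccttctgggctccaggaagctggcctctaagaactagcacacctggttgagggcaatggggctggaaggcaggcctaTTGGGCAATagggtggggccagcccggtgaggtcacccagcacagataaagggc
Scgb3a1, chr11:49663345-49663594: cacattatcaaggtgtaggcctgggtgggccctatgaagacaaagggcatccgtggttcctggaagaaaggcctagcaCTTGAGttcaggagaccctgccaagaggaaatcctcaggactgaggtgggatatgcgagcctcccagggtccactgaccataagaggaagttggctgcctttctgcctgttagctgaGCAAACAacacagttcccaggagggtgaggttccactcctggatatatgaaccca
The motifs, searched on either strand over the 250 bases before each start, were CTCAAG (the core of an element bound by NKX2-1, a lung epithelial factor), TGTTTAC or TGTTTGC (forkhead, FOXA) and TTNNGCAAT (C/EBP), and none of them contains another. CTCAAG was found once in the windows of *Bpifa1*, *Scgb3a1*, *Reg3g* and *Spdef*, and 13.3% of all 32851 promoters in the table hold it. A forkhead match was found in *Scgb3a1* and in 1 of the 2 *Bpifb1* windows (7.29% of all promoters), and a C/EBP match in *Ltf* (1.93%). A match is a run of letters and was not tested as a binding site.

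None of the 10 genes differed between genotypes beyond the spread between libraries, and 1 WT lung held far more secretory transcripts than the other 2. WT replicate 1 was the highest of the 6 libraries for 9 of 10 genes, a pattern that 25.1% of all tested genes shared. WT replicates 2 and 3 were low for all 10. Comparing KO with these libraries sets aside WT replicate 1, singled out for its high values. All 3 KO libraries lay above WT replicates 2 and 3 for 4 of 10 genes, against 19.9% of all genes. For the other 6 genes 2 KO libraries did, a pattern whose share over all genes was not computed. No member had an edgeR quasi-likelihood adjusted p (Benjamini-Hochberg over 16633 genes) under 0.05. The smallest was 0.612, 0 members had an unadjusted p under 0.05, and over all genes the percent called was 0% after adjustment and 11.8% before it. DESeq2 also called 0 of the 7 members for which it gave an adjusted p, against 3.49% of all genes. For *Scgb3a1*, *Scgb3a2* and *Ltf* it gave an estimate but no p, so it tells nothing of these. The genotypes overlapped for all 10 members, while 21.1% of tested genes had groups without overlap. Mean CPM was lower in KO for 7 of 10 (51.0% of all genes), whereas the median of the 3 libraries was higher in KO for 10 of 10 (50.0% of all genes). Fold changes are given as log2 of KO over WT, and their median was -0.53 over the members and -0.01 over all genes tested.

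**Figure D1:**
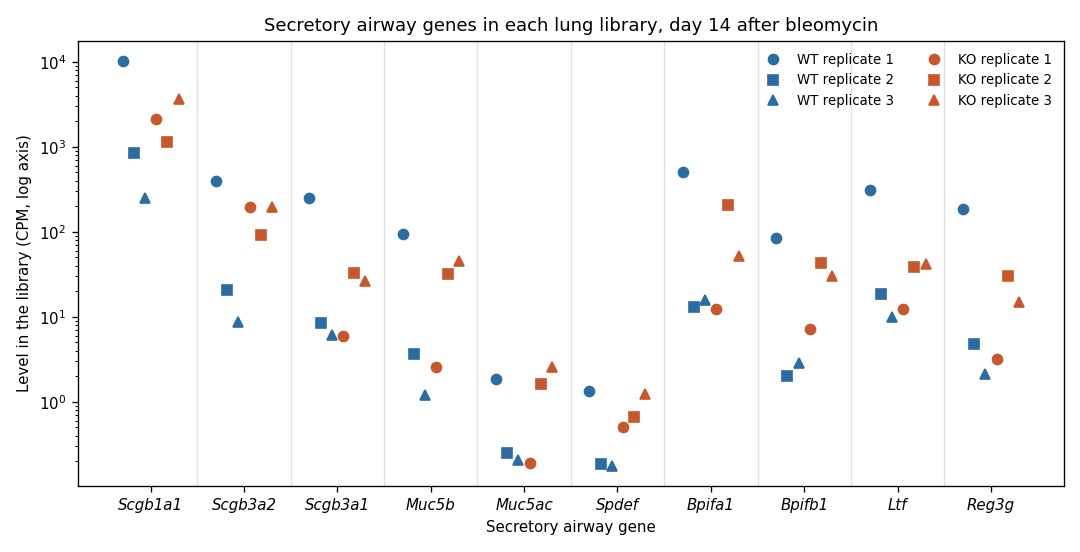
Level of each secretory gene in each library, in CPM on a log axis. Colour gives the genotype and marker shape the replicate number, and each point is 1 library. WT replicate 1 (blue circles) is the top point for 9 of 10 genes and WT replicates 2 and 3 lie far below it.

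The secretoglobins carried most of the signal. *Scgb1a1*, the main club cell protein (chromosome 19, 9083636 to 9087958, minus strand, protein coding), stood at 10243, 843.2 and 250.4 CPM in WT replicates 1 to 3 and at 2110.5, 1124 and 3618 CPM in KO replicates 1 to 3. All 3 KO libraries lay between WT replicate 1 and WT replicate 2, and the WT lungs spanned a 40.9-fold range against 3.22-fold among KO lungs. The WT mean was 3779 ± 5606 CPM and the KO mean 2284 ± 1256 CPM (SD over 3 libraries each). The log2 fold change was -0.73 ± 1.26 (SE), with a 95% interval from -3.75 to 2.29 (edgeR adjusted p 0.867). This single gene took 0.994% of all counts in WT replicate 1 and 0.0249% in WT replicate 3.

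*Scgb3a2*, a secretoglobin of bronchiolar club cells (chromosome 18, 43764289 to 43767399, plus strand), had 397.2, 20.4 and 8.61 CPM in WT and 194.7, 92.3 and 194.9 CPM in KO. It had the narrowest range among KO lungs of any member, 2.11-fold. Its log2 fold change was 0.18 ± 1.29, with an interval from -2.92 to 3.28 (edgeR adjusted p 0.974). *Scgb3a1*, a secretoglobin of the larger airways (chromosome 11, 49663610 to 49665118, plus strand), had 247.8, 8.54 and 6.10 CPM in WT and 5.94, 33.0 and 26.6 CPM in KO. KO replicate 1 was its lowest library and WT replicate 1 its highest, with a log2 fold change of -2.0 ± 1.46 (edgeR adjusted p 0.638). So the 2 lungs that stood apart from the rest sat at opposite ends for *Scgb3a1*, while for *Scgb3a2* they were the highest and in the upper part of the order.

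Of the gel-forming mucins, *Muc5b*, the mucin of healthy mouse airways (chromosome 7, 141839070 to 141873084, plus strand), had 94.1, 3.66 and 1.20 CPM in WT and 2.56, 31.6 and 44.8 CPM in KO. WT replicates 2 and 3 and KO replicate 1 were low, and the other 3 libraries were high. The log2 fold change was -0.32 ± 1.60 (edgeR adjusted p 0.960). *Muc5ac*, the mucin typical of goblet cell metaplasia, lies beside it (141788972 to 141819231, plus strand) and split the libraries in the same way at a far lower level. It had 60, 8 and 7 counts in WT and 6, 54 and 82 counts in KO, and was the only member with its highest value in a KO library. Counting error alone gives the 6 counts of KO replicate 1 an exact 95% Poisson interval from 2.20 to 13.1 counts, well under the 54 and 82 of the other KO lungs. Its log2 fold change was 0.91 ± 1.14 (edgeR adjusted p 0.805). How the submitters' counting divided reads shared between similar genes is not given, so small values of neighbouring mucins are uncertain.

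*Spdef*, the transcription factor that drives goblet cell maturation (chromosome 17, 27714352 to 27728955, minus strand), was near the limit of detection. It had 43, 6 and 6 counts in WT and 16, 22 and 40 counts in KO, or 0.18 to 1.32 CPM and 0.51 to 1.23 CPM. All 3 KO libraries were above WT replicates 2 and 3 and below WT replicate 1, and the log2 fold change was 0.51 ± 0.89 (edgeR adjusted p 0.868). The 6 counts of either WT library have an exact Poisson interval from 2.20 to 13.1 counts, and the 16 of KO replicate 1 one from 9.15 to 26.0, so these neighbours in the order overlap in counting error.

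The BPI-fold proteins are antimicrobial and surface-active products of the upper airway epithelium and its glands. *Bpifa1* (chromosome 2, 154142880 to 154149219, plus strand) had 507.1, 13.2 and 15.7 CPM in WT and 12.4, 205.1 and 51.8 CPM in KO, a 16.5-fold range among the KO lungs. KO replicate 2 stood out here, far above KO replicate 3. Its log2 fold change was -0.99 ± 1.58 (edgeR adjusted p 0.853). *Bpifb1* (chromosome 2, 154190818 to 154220369, plus strand) had 83.9, 2.03 and 2.89 CPM in WT and 7.20, 42.9 and 30.4 CPM in KO. All 3 KO libraries exceeded WT replicates 2 and 3, and the log2 fold change was -0.14 ± 1.41 (edgeR adjusted p 0.981). Members of this family resemble each other, and their counts are uncertain for the same reason as those of the mucins.

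*Reg3g*, a lectin that kills Gram-positive bacteria (chromosome 6, 78466269 to 78468872, minus strand), showed the widest spread among WT lungs of any member, 85.8-fold. It had 182.8, 4.73 and 2.13 CPM in WT and 3.22, 30.2 and 15.1 CPM in KO, with a log2 fold change of -1.97 ± 1.65 (edgeR adjusted p 0.688). *Ltf*, the iron-binding protein lactoferrin made by gland cells and stored in neutrophil granules (chromosome 9, 111019271 to 111042767, plus strand), had 310.6, 18.6 and 9.98 CPM in WT and 12.3, 38.1 and 41.6 CPM in KO. Its log2 fold change was -1.88 ± 1.29, with an interval from -4.97 to 1.21 (edgeR adjusted p 0.612, the smallest of the 10). The summed level of the neutrophil markers was 191.8 CPM in WT replicate 1, the lowest of the WT libraries (up to 249.9 CPM). *S100a9* (51.0 CPM), *S100a8* and *Csf3r* (37.7 CPM) weigh most in that sum, and *Camp* (0.52 CPM) and *Ngp* (1.47 CPM) little. Of the 11 neutrophil markers tested, 1 was highest in WT replicate 1. This was *S100a8*, at 49.4 CPM against 27.4 and 26.7 CPM in WT replicates 2 and 3. In KO the summed level was 130.0 to 201.9 CPM, and 3 of the 11 had higher and 8 lower estimates in KO. *Cxcr2*, the neutrophil chemokine receptor, was at 13.5, 15.4 and 14.0 CPM in WT and 7.93, 5.57 and 5.83 CPM in KO, without overlap (log2 fold change -1.15 ± 0.24, edgeR adjusted p 0.225, DESeq2 adjusted p 0.00279). *Csf3r*, the receptor for the granulocyte growth factor, had -1.03 ± 0.34 and the calprotectin gene *S100a9* -0.44 ± 0.47 (edgeR adjusted p 0.328 and 0.768). The 3 with higher estimates, named after their values were seen, encode granule proteins: *Camp* (1.85 ± 0.91), *Ngp* (0.93 ± 0.67) and *Mpo* (0.48 ± 0.62), each with overlapping groups. Granule protein genes were also among the 8 with lower estimates, such as *Prtn3* (-1.09 ± 0.42, without overlap) and *Mmp8* (-0.16 ± 0.36). Estimates of granule genes thus had both signs. Of the 11 markers, 4 had groups without overlap (21.1% of all genes), all lower in KO: *Cxcr2*, *Csf3r*, *Prtn3* and *Retnlg*. The same 4 were those with an unadjusted edgeR p under 0.05 (11.8% of all genes), and edgeR called 0 after adjustment. *Ngp* was lowest in WT replicate 1, at 1.47 CPM, and *Camp* in WT replicate 3, at 0.41 CPM. Which cells made the *Ltf* transcripts was not tested.

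Levels between genes were compared per transcript length, in the authors' FPKM (fragment counts scaled to transcript length and library size). *Scgb1a1* led by far, with 19277, 1698 and 508.9 FPKM in WT and 2355 to 7506 FPKM over the 3 KO columns. *Scgb3a2* was next in mean level, at 640.8, 35.2 and 15.0 FPKM in WT and 164.1 to 349.2 FPKM in KO. *Bpifa1* (mean 113.0 FPKM) and *Scgb3a1* (99.1 FPKM) followed with ranges that overlapped almost fully, and then *Reg3g* (47.2), *Ltf* (24.1) and *Bpifb1* (15.7), whose ranges also overlapped. *Muc5b* averaged 1.86 FPKM, *Spdef* 0.331 and *Muc5ac* 0.0995 FPKM. Ordering by the mean of log2(FPKM + 1) gave the same order for 10 of 10, but the median over libraries placed *Scgb3a1* above *Bpifa1* and *Bpifb1* above *Ltf*. In 1 KO column *Bpifa1* (185.0 FPKM) was above *Scgb3a2* (164.1 FPKM).

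For 7 of the 10 genes the estimate was lower in KO with all 6 libraries and higher without WT replicate 1, and for *Scgb3a2*, *Muc5ac* and *Spdef* it was higher in both fits. Without that library all 10 genes had higher estimates in KO, with a median log2 fold change of 2.44 and a range from 1.10 for *Ltf* to 3.47 for *Scgb3a2*. The other values without it were 2.06 for *Scgb1a1*, 1.58 for *Scgb3a1*, 3.44 for *Muc5b*, 2.66 for *Muc5ac*, 2.13 for *Spdef*, 2.63 for *Bpifa1*, 3.44 for *Bpifb1* and 2.24 for *Reg3g*. The 95% interval, unadjusted, excluded 0 for 5 of them, the widest margin being that of *Scgb3a2* (2.08 to 4.86). In that fit 15.6% of all genes had an unadjusted edgeR p under 0.05. No member passed after adjustment (smallest edgeR adjusted p 0.219, and 0% of all genes called). WT replicate 1 was singled out for its high values of these same genes. Fits without it therefore give no independent support for a genotype difference. Other libraries also mattered: without KO replicate 1 the estimate was 0.22 for *Muc5b* and 0.31 for *Bpifb1*, and *Scgb3a2* was -0.34 or -0.38 without WT replicate 2 or 3. Leaving out both first replicates gave a median of 2.94 and 1 call, *Bpifb1* (3.90, edgeR adjusted p 0.0432), where 0.275% of all genes were called. DESeq2 without WT replicate 1, an alternative chosen after seeing the data, called 3 of 10 (*Scgb1a1*, *Scgb3a2* and *Bpifb1*) against 5.69% of all genes. limma-voom with sample weights called 5 of 10 higher in KO (*Scgb3a2*, *Muc5b*, *Muc5ac*, *Bpifb1* and *Spdef*) against 13.4% of all genes, and unweighted limma-voom called 0.

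**Figure D2:**
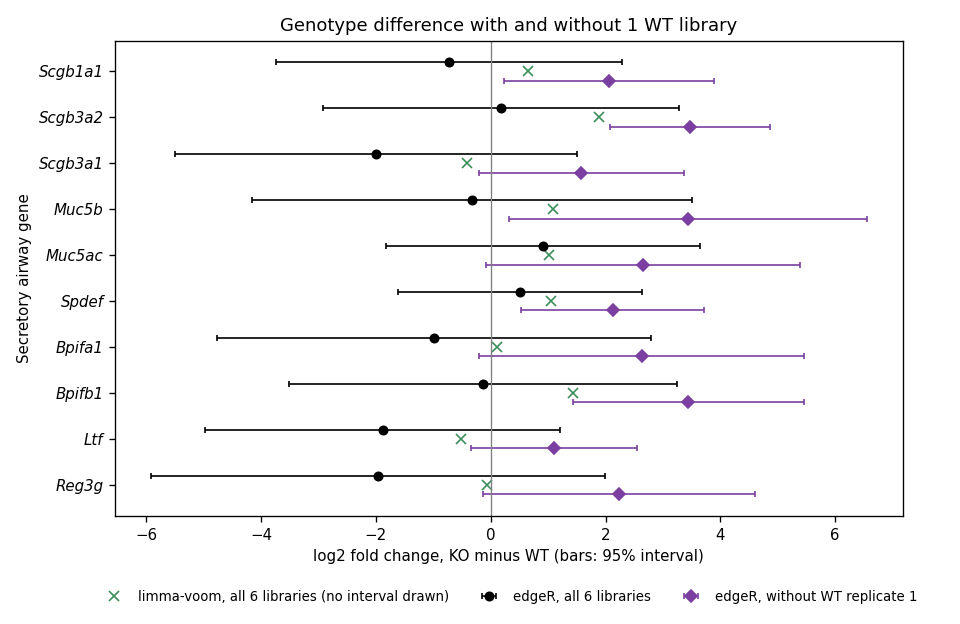
log2 fold change (KO minus WT) of each secretory gene, with 95% intervals, in edgeR on all 6 libraries (black circles) and without WT replicate 1 (purple diamonds), and the limma-voom estimate on all 6 (green crosses, drawn without interval). Every interval on all 6 libraries spans 0, and all 10 estimates lie above 0 without WT replicate 1.

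At the level of single libraries, the high position of WT replicate 1 was shared by nearly all members, and the order of the other 5 lungs varied between genes. WT replicate 1 was at least 8 times the mean of WT replicates 2 and 3 for 9 of 10 genes, a size chosen after the values were seen, which 1.26% of all tested genes reached. WT replicate 3 was the lowest of the 6 libraries for 6 genes, WT replicate 2 for 1 and KO replicate 1 for 3. Among the KO lungs, replicate 1 was the lowest for 8 of 10, as for 44.0% of all genes, and the highest was replicate 3 for 6 genes and replicate 2 for 4. The exceptions were the club cell secretoglobins *Scgb1a1* and *Scgb3a2*, whose lowest KO library was replicate 2. All 3 KO libraries were above WT replicates 2 and 3 for *Scgb1a1*, *Scgb3a2*, *Bpifb1* and *Spdef*, which is 4 of 10 against 19.9% of all genes, and below WT replicate 1 for the same 4 (3.41% of all genes). The cause of the high value in WT replicate 1 was not tested.

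The mix of secretory products also differed between lungs, and this was read as counts of each gene per 1000 counts of *Scgb1a1* in the same library. *Scgb3a2* had 38.8, 24.2 and 34.4 in WT and 92.3, 82.1 and 53.9 in KO, the only one of the 9 genes whose groups did not overlap. On this measure 0.241% of all genes were higher in every KO library and 0.517% lower. *Scgb1a1* itself was highest in WT replicate 1 and lowest in WT replicate 3, so a gene with a steady level must overlap. These shares are low for that reason and do not show how rare the *Scgb3a2* result is. The mean log2 difference was 1.22, with an exact 2-sided permutation p of 0.1, the smallest that 3 against 3 can give, and 0.9 after Benjamini-Hochberg adjustment over the 9 ratios. *Bpifa1* varied most, at 49.5, 15.6 and 62.7 in WT and 5.90, 182.5 and 14.3 in KO, the widest spread of the 9. *Muc5b* followed at 9.18, 4.34 and 4.78 in WT and 1.21, 28.1 and 12.4 in KO. Relative to *Scgb1a1*, *Muc5b*, *Muc5ac* and *Bpifa1* were lowest in KO replicate 1. *Bpifb1* was lower in WT replicate 2 (2.41) than in KO replicate 1 (3.41). Each of these mucin and BPI-fold genes was highest in KO replicate 2. The ratio of *Scgb3a1* to *Scgb3a2* counts was 0.624, 0.419 and 0.708 in WT and 0.0305, 0.358 and 0.137 in KO, without overlap. That of *Bpifa1* to *Bpifb1* was 6.04, 6.50 and 5.43 in WT and 1.73, 4.78 and 1.70 in KO, also without overlap, whereas *Muc5b* to *Muc5ac* overlapped, at 51.0, 14.9 and 5.86 in WT and 13.5, 19.7 and 17.7 in KO. These 3 pairs were given no test. The share of other gene pairs without overlap was not computed, so how unusual these separations are is not known. The ratios show unequal change only and do not say which gene moved.

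**Figure D3:**
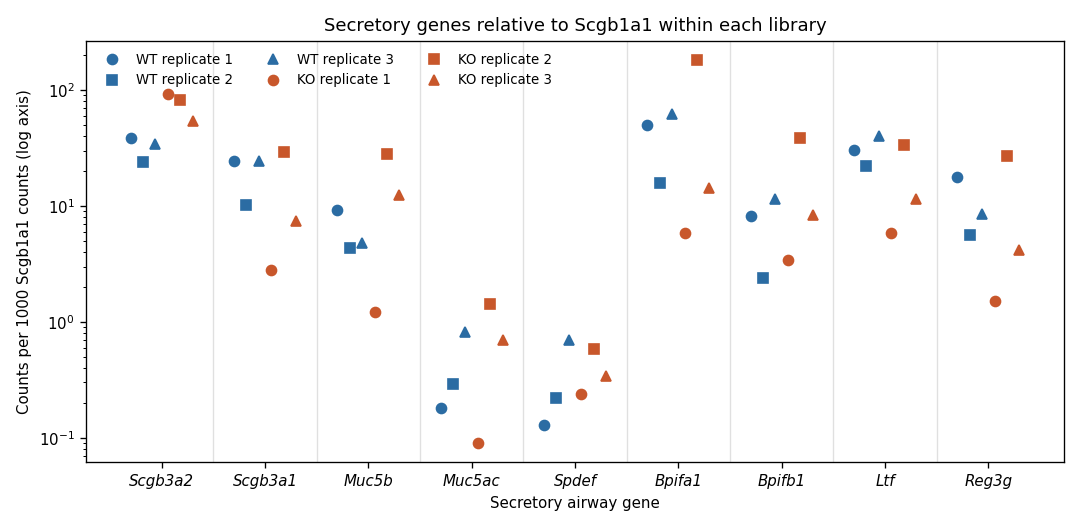
Counts of each secretory gene per 1000 *Scgb1a1* counts in the same library, on a log axis, with colour for genotype and marker shape for replicate number. The 3 KO points of *Scgb3a2* lie above its 3 WT points, and for the other 8 genes the genotypes overlap.

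Other genes of the same cells were read from companion lists. Of 15 further club cell genes, all tested, 11 had higher and 4 lower estimates in KO, with a median log2 fold change of 0.54. edgeR and DESeq2 called 0 of them, and 0 had an unadjusted edgeR p under 0.05. Over all genes the shares called were 0% and 3.49%, and 11.8% had an unadjusted edgeR p under 0.05. The carbonyl reductase *Cbr2* had 625.0, 94.7 and 64.5 CPM in WT and 402.5, 207.8 and 532.2 CPM in KO (0.54 ± 0.88). The cytochrome *Cyp4b1* (1.16 ± 0.53) and the aldehyde oxidase *Aox3* (1.36 ± 0.64) had the smallest p, and haptoglobin *Hp*, which other cells also make, had -0.50 ± 0.46. Of 24 further goblet and mucus genes 19 were tested, 11 with higher and 8 with lower estimates (median 0.31). Of the 19, edgeR called 0 (0% of all genes) and DESeq2 1 (3.49% of all genes). The anion exchanger *Slc26a4* had 9.06, 6.88 and 6.95 CPM in WT and 55.0, 11.4 and 29.0 CPM in KO, without overlap (2.06 ± 0.55, edgeR adjusted p 0.269, DESeq2 adjusted p 0.00955). *Clca1*, a secreted goblet cell protein, reached 11.9 CPM in KO replicate 2 and lay between 0 and 1.45 CPM in the other 5 libraries. The ion transport genes *Slc12a2* (-0.01 ± 0.24) and *Ano1* (0.31 ± 0.39) were the most abundant of this list.

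Of 21 airway defence genes 12 were tested, 7 with higher and 5 with lower estimates (median 0.41). Of the 12, edgeR called 0 (0% of all genes) and DESeq2 called 2 (3.49% of all genes). These were *Bpifa2*, a salivary member of the BPI-fold family, with 4, 0 and 0 counts in WT and 68, 27 and 34 counts in KO, and the lysozyme gene *Lyz1*. *Lyz1* had 40.5, 20.4 and 22.7 CPM in WT and 396.4, 54.8 and 80.5 CPM in KO (2.67 ± 0.81, edgeR adjusted p 0.298), and it has a near-identical neighbour, so its counts are uncertain. A count of 0 allows up to 3 counts, or 0.0871 to 0.0967 CPM in these libraries, for counting error only. Complement *C3* (-0.14 ± 0.37) and the surfactant lectin *Sftpd* (0.86 ± 0.95) were the most abundant.

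The signals that drive secretory cells were compared next. Of 25 ligand, receptor and transcription factor genes 21 were tested, 12 with higher and 9 with lower estimates (median 0.12). Both edgeR and DESeq2 called 0 of them (0% and 3.49% of all genes). At an unadjusted edgeR p under 0.05 there was 1 higher and 1 lower of the 21, a share no larger than the 11.8% of all genes. *Il17a* was the higher one, at 0, 0.25 and 0.06 CPM in WT and 0.51, 1.46 and 0.43 CPM in KO (edgeR adjusted p 0.376). These were 0, 8 and 2 counts in WT and 16, 49 and 14 in KO, so the WT values lay near the counting floor. *Il13ra1*, a receptor chain for interleukin-13, was the lower one, at 149.5, 167.4 and 168.5 CPM in WT and 94.5, 133.0 and 108.2 CPM in KO (-0.53 ± 0.19, edgeR adjusted p 0.367). *Il4ra*, its partner chain, had -0.50 ± 0.38 and the receptor *Notch1* 0.27 ± 0.66. The ligand genes *Il13* and *Il4*, named after their values were seen, had at most 3 and 5 counts in any library and were not tested.

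Markers of other epithelial cells were above their mean over the libraries in WT replicate 1, and those of cartilage and neutrophils were below it. The mean log2 level of the secretory genes, centred on the 6 libraries, was 2.75, -1.49 and -2.14 in WT and -0.98, 0.88 and 0.98 in KO. Ciliated cell markers, which come from the same airways, had 1.18, -0.78 and -1.39 in WT and -0.38, 0.22 and 1.16 in KO. All 14 were tested, and edgeR called 0 (0% of all genes). Pan-epithelial markers had 1.42, -0.30 and -1.03 in WT and 0.19, -0.67 and 0.38 in KO. Type 2 alveolar markers differed in that KO replicate 1 was highest, at 1.10, with WT replicate 1 at 0.47. Cartilage markers had -1.15, 0.56 and 0.60 in WT and neutrophil markers -0.27, 0.49 and 0.12, so both were lowest in WT replicate 1 among the WT lungs. Summed ciliated markers were 86.9 to 447.7 CPM in WT and 202.9 to 407.3 CPM in KO, and summed type 2 markers were 2169 to 10917 CPM and 3990 to 21269 CPM. The part of airway or epithelial content in the secretory result was not tested.

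Of the markers of tissue that can come along with the trachea, those of cartilage, basal cells, and oesophagus, thyroid and salivary tissue were scarce. Submucosal gland markers had higher sums. Cartilage markers summed to 3.75 to 5.41 CPM in WT and 2.93 to 7.26 CPM in KO, with 4 of 10 tested, and WT replicate 1 had the lowest sum of the WT libraries. For the other 3 lists of this kind WT replicate 1 had the highest WT sum. Oesophagus, thyroid and salivary markers summed to 4.82 to 9.83 CPM in WT and 4.11 to 5.40 CPM in KO, with 6 of the 13 at 0 in all libraries, and the 9.83 CPM of WT replicate 1 was the highest of all 6. Basal cell markers summed to 3.23 to 7.89 CPM in WT and 4.07 to 17.7 CPM in KO, with KO replicate 2 highest. Submucosal gland markers summed to 101.5 to 394.0 CPM and 125.9 to 325.3 CPM, most of it the water channel gene *Aqp5*, which alveolar cells also express. The part of such tissue in the secretory result was not tested.

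**Figure D4:**
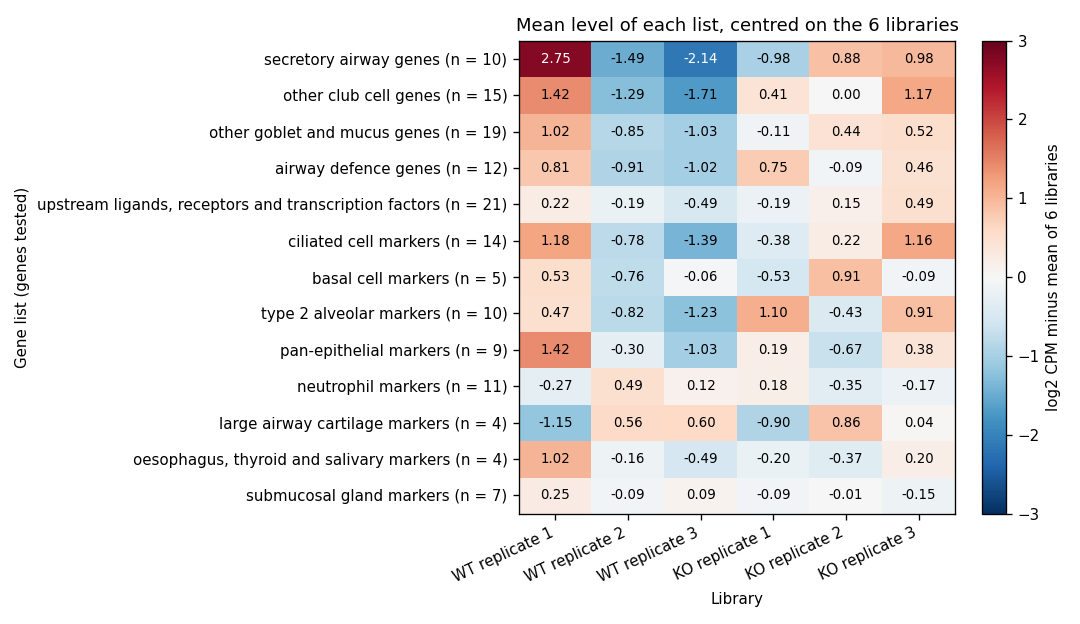
Mean centred log2 CPM of the secretory genes and of the 12 companion lists (rows, number of genes tested in parentheses) in each library (columns). The secretory genes show the largest deviations of the lists drawn, from 2.75 in WT replicate 1 to -2.14 in WT replicate 3.

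Likeness to the mean of the 10 was measured as the root mean square difference of centred log2 CPM over the 6 libraries. Ranked were the 13626 other protein-coding genes with a symbol, no predicted model and a mean of at least 1 CPM. Among the nearest were *Lypd2* (0.32 log2 units), *Gp2* (0.35), *A2ml1* (0.38) and *Cyp2a5* (0.49), whereas the members themselves lay 0.56 to 1.10 from their own mean. *A2ml1*, a protease inhibitor, had 42.9, 2.80 and 1.37 CPM in WT and 2.84, 7.29 and 7.59 CPM in KO. Among those nearest to *Scgb1a1* were *Azgp1* (0.23) and *Selenbp2* (0.33). Nearest to *Reg3g* were *Slc5a8* (0.54), *Sult1d1* (0.59) and *A2ml1* (0.72). The likeness is over 6 libraries of which WT replicate 1 is far from the rest, and it has no test.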

How the data were processed

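RNA was extracted with TRIzol from whole lung of 3 WT and 3 KO mice and made into libraries with an NEBNext Ultra kit, per the labels' protocols. The deposited read counts per gene are whole numbers with no normalization, and the deposited FPKM values for the same genes were scaled by the authors. The submitters' processing notes list HISAT2 2.0.4, StringTie 1.3.4d and GRCm38, and say nothing here of counting, strand or annotation settings. Count columns were matched to samples by genotype and replicate number, and KO columns of the FPKM table, whose suffix no label explains, to the KO group. Coordinates are from GENCODE M21 (GRCm38).

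Genes were kept by filterByExpr, scaled by TMM and tested 2-sided with the robust quasi-likelihood test of edgeR 4.0.16 (R 4.3.3), with genotype as the only term and Benjamini-Hochberg adjustment over 16633 genes at 0.05. Standard errors were derived from the F statistic (size of the log2 fold change divided by root F), and intervals are 95%. Alternatives were DESeq2 1.42.0, limma 3.58.1 (voom, voom with sample weights, and log2 FPKM with pseudocounts 1 and 0.1, which understates low genes), other scalings and filters, a replicate block, and libraries left out. The scripts were tested on simulated data. Each library is from a separate mouse, so p-values rest on the spread among 6 mice. The members, the 12 companion lists (170 entries, all found in the table) and the tests were chosen with earlier results of these data known. Named were all members, genes nearest in pattern (some are not reported here) and, from each companion list, the 2 of highest CPM and the 2 of smallest p. For marker lists of other cells only counts and sums are given, except neutrophil genes beside *Ltf*, and *Sftpc* and *Aqp5*. No protein sequences were used here.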

Additional observations from a re-analysis of the deposited data

How the results depend on the processing

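edgeR on all 6 libraries called 0 members, and the sign of 8 of the 10 estimates changed under at least 1 alternative, while *Muc5ac* and *Spdef* were positive in each fit that held them. Estimates that changed sign under limma-voom were *Scgb1a1* (0.66), *Muc5b* (1.08), *Bpifa1* (0.11) and *Bpifb1* (1.44). On log2(FPKM + 1), with or without the filter, they were *Scgb1a1* (0.72), *Muc5b* (0.23), *Bpifa1* (0.15), *Bpifb1* (1.09), *C3* (0.014) and *Slc12a2* (0.034), and on log2(FPKM + 0.1) 0.72, 0.80, 0.17, 1.43, 0.014 and 0.035. With sample weights they were *Scgb1a1* (1.62), *Scgb3a1* (1.68), *Muc5b* (3.47), *Bpifa1* (2.62), *Bpifb1* (3.71), *Reg3g* (2.25), *Ltf* (1.15), *C3* (0.26), *Hp* (0.10) and *Slc12a2* (0.14). Without both first replicates the same 10 were 2.13, 2.03, 3.99, 3.16, 3.90, 2.73, 1.49, 0.24, 0.26 and 0.26. With DESeq2 without WT replicate 1, chosen after seeing the data, they were 2.07, 1.58, 3.44, 2.64, 3.45, 2.24, 1.11, 0.33, 0.17 and 0.12, and *Notch1* was -0.12. With total counts only, *Slc12a2* was 0.049. The cause was not tested.

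Leaving out 1 library at a time gave ranges of -1.28 to 2.06 for *Scgb1a1*, -2.55 to 1.58 for *Scgb3a1*, -0.38 to 3.47 for *Scgb3a2*, -0.94 to 3.44 for *Muc5b*, -2.47 to 2.63 for *Bpifa1*, -0.70 to 3.44 for *Bpifb1*, -2.78 to 2.24 for *Reg3g*, -2.42 to 1.10 for *Ltf*, -0.37 to 0.31 for *C3*, -0.79 to 0.16 for *Hp*, -0.13 to 0.68 for *Notch1*, -4.89e-04 to 2.27 for *Sftpd* and -0.23 to 0.13 for *Slc12a2*.

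Calls among the 10 members were 5 with sample weights, 1 without both first replicates and 3 with DESeq2 without WT replicate 1, and 0 under the other alternatives run. Over all genes edgeR called 0, DESeq2 667, limma-voom with sample weights 2221, edgeR without both first replicates 46, DESeq2 without WT replicate 1 1039, and edgeR with 1 library left out 0 to 3. Among companion genes with an adjusted p, DESeq2 called 8 of 149 (5.37%, against 3.49% of all genes), sample weights 40 of 131 (30.5% against 13.4%), the fit without both first replicates 1 of 131 (0.763% against 0.275%) and DESeq2 without WT replicate 1 40 of 143 (28.0% against 5.69%).

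With the replicate number as a block, *Scgb1a1* was 0.58, *Scgb3a1* 0.44, *Muc5b* 2.24, *Bpifa1* 1.05, *Bpifb1* 2.19, *Reg3g* 1.05 and *Ltf* 0.022, and 0 genes were called with or without the block. Deviations of same-numbered libraries correlated at 0.35, 0.35 and -0.10, and those of differently numbered ones at -0.51 to 0.47. With 3 libraries per group, these values cannot tell whether the numbers pair the mice. DESeq2 gave no p for *Scgb3a1*, *Scgb3a2* and *Ltf*. *Muc5ac* and *Spdef* did not pass the FPKM filter, and *Spdef* did not pass that of 1 CPM in 3 libraries. Counts were lowest for *Spdef* and *Muc5ac* (6 to 82), and single libraries of *Muc5b* (41 and 81), *Bpifb1* (66) and *Reg3g* (73) were also low.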
